A study of Mus musculus with 6 samples.

Results

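The collagen genes other than 4 cartilage collagens were examined in RNA from atherosclerotic plaque of the mouse aortic arch. Members were the gene symbols of the count table made of Col, a number, the letter a and a number, without Col2a1, Col9a1, Col10a1 and Col11a1. Other collagen genes of cartilage stayed in the set, namely Col9a2, Col9a3, Col11a2 and Col27a1. The rule gave 40 of the 44 such collagen symbols among 24062 in the table, namely 9 fibrillar, 8 basement membrane, 6 microfibrillar and 17 other collagens. All 6 libraries came from C57BL/6 mice of the same genotype, which develop plaques on a fat-rich diet. All mice were kept on high-fat chow (TD88137) over 12 weeks, followed by 3 weeks of low-fat feeding. The 3 treated libraries came from mice injected into the peritoneum with ABT263 at 100 mg/kg, 1 dose per day, in week 1 of low-fat feeding, and the 3 control libraries from mice given vehicle. ABT263 (navitoclax) is an inhibitor of BCL-2 family proteins that keep cells alive, and it serves as a senolytic, a drug that kills senescent cells. The title of the series poses the question of how such cells affect repair by vascular smooth muscle. The genotype and both diets were shared by the groups, so only the drug distinguished them by label. The labels do not say whether each library came from a separate mouse, so p-values rest on differences among these samples, some of which may be technical.

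Collagens are proteins of 3 chains wound into a triple helix. Fibrillar collagens (types I, III and V in artery) form the load-bearing fibrils of the media, the adventitia and the fibrous cap of a plaque. Type IV builds the sheet of basement membranes under endothelium and around each smooth muscle cell, type VI forms beaded microfibrils that link cells to the fibrils, and other types coat fibrils, form short-chain networks or span the cell membrane. In plaque, collagen is made chiefly by smooth muscle cells and cells derived from them, and its amount bears on the strength of the cap.

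The libraries held 62930547 to 110452098 counts. Levels are given as CPM, read counts relative to a library size scaled by the trimmed mean of M-values (TMM). A count of 0 allows at most 3 counts, or 0.0278 to 0.0480 CPM, by counting error alone. Summed over 8 white adipocyte markers, the level was 3437 CPM in ABT263 replicate 2 and 9.87 to 24.4 CPM in the other libraries. Contractile smooth muscle markers summed to 2608, 2977 and 3593 CPM under vehicle and to 2407, 15763 and 9743 CPM with ABT263. Endothelial markers summed to 571 CPM in vehicle replicate 2 and to 1775 to 5198 CPM elsewhere. Skeletal muscle markers summed to 46.4 CPM in ABT263 replicate 3 and to at most 9.26 CPM elsewhere. In bulk tissue, fewer cells of a type and less RNA per cell cannot be told apart.

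Upstream sequences are shown for Col4a3 to Col4a6, type IV genes that lie in pairs starting back to back and whose pair members varied together. They are also shown for Col3a1, whose ratio to Col1a1 did not overlap between the groups. Sequences of Col8a2 and Col11a2 are given as examples from the 5 members whose groups did not overlap. Each runs 5′ to 3′ on the strand of the named gene (of Col4a4 for the interval) and ends before the first annotated exon. Capitals mark matches on either strand to the GC box GGGCGG, the CCAAT box, the SOX-type core ACAAT, the TATA box TATAAA or the CArG box that serum response factor binds.
Col4a3 to Col4a4 interval: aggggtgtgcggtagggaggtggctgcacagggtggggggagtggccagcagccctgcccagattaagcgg
Col4a5 upstream: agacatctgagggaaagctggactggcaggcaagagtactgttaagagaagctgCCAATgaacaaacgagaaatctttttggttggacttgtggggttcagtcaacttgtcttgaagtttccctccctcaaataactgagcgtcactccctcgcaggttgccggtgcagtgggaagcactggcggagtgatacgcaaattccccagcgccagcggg
Col4a6 upstream: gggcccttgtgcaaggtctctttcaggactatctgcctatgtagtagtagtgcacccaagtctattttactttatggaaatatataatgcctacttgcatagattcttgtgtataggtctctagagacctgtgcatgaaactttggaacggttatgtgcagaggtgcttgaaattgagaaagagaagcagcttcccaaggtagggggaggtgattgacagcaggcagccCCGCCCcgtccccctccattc
Col3a1 upstream: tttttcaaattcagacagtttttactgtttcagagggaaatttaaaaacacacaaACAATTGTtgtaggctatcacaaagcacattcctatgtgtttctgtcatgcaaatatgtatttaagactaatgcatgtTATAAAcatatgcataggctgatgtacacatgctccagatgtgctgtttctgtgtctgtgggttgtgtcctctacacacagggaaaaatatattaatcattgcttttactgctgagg
Col8a2 upstream: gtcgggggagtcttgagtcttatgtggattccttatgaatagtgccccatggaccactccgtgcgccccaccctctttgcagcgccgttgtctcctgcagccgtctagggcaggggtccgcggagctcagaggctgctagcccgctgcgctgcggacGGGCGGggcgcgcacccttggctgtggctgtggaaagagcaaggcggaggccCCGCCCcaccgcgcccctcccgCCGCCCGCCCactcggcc
Col11a2 upstream: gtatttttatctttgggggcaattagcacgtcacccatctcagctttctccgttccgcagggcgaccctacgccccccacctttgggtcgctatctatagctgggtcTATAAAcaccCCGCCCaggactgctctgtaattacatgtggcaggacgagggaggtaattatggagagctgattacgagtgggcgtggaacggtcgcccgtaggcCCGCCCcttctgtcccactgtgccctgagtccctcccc

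Sequences are from RefSeq (GRCm38.p6). They lie at chr1:82586850-82586920 (the whole interval between the starts of Col4a3 and Col4a4), chrX:141475169-141475384 (plus strand), chrX:141474077-141474326 (minus), chr1:45311288-45311537 (plus), chr4:126286544-126286792 (plus) and chr17:34038888-34039137 (plus). The interval between Col4a3 and Col4a4 is 71 bases long and held none of the motifs. Of all windows of that length, 20.7% held the GC box, 13.3% the CCAAT box, 8.65% ACAAT, 4.41% TATAAA and 0.405% the CArG box. Over the 250 bases before each start, 34 windows of 32 members were matched by symbol. The GC box was in 21 of them (61.8%, against 32.7% of all 32851 windows), the CCAAT box in 11 (32.4% against 33.8%), TATAAA in 4 (11.8% against 12.4%), the CArG box in 1 (2.94% against 1.47%) and ACAAT in 2 (5.88% against 27.7%). A match describes letters and not a binding site. The SOX-type matches of Col3a1 overlap each other on opposite strands, and of the 4 GC boxes of Col8a2 the last pair overlap by 2 bases. The RefSeq start of Col11a2 (34039138) lies upstream of the start given for the gene in GENCODE.

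Collagen RNA was abundant, and most of it was fibrillar. The 40 members summed to 10896, 8231 and 16083 CPM in vehicle replicates 1 to 3 and to 8678, 12054 and 23675 CPM in ABT263 replicates 1 to 3. The groups overlapped, with ABT263 replicate 3 highest and vehicle replicate 2 lowest. On average, 65.7% of this sum came from fibrillar genes, 18.7% from basement membrane genes, 9.12% from microfibrillar genes and 6.46% from the others. Col1a1, Col1a2 and Col3a1 alone made up 53.1%. Per kilobase of transcript (the longest coding transcript of the annotation), the highest mean levels over the 6 libraries were those of Col3a1 (473 CPM per kb), Col1a2 (471) and Col1a1 (331). Col5a2 (162), Col18a1 (137) and Col4a1 (109) came next. Neighbours in this order overlapped widely across the libraries. With vehicle, Col3a1 stood at 364 ± 74.0 CPM per kb (SD, n = 3) and Col1a2 at 452 ± 118.

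**Figure D1:**
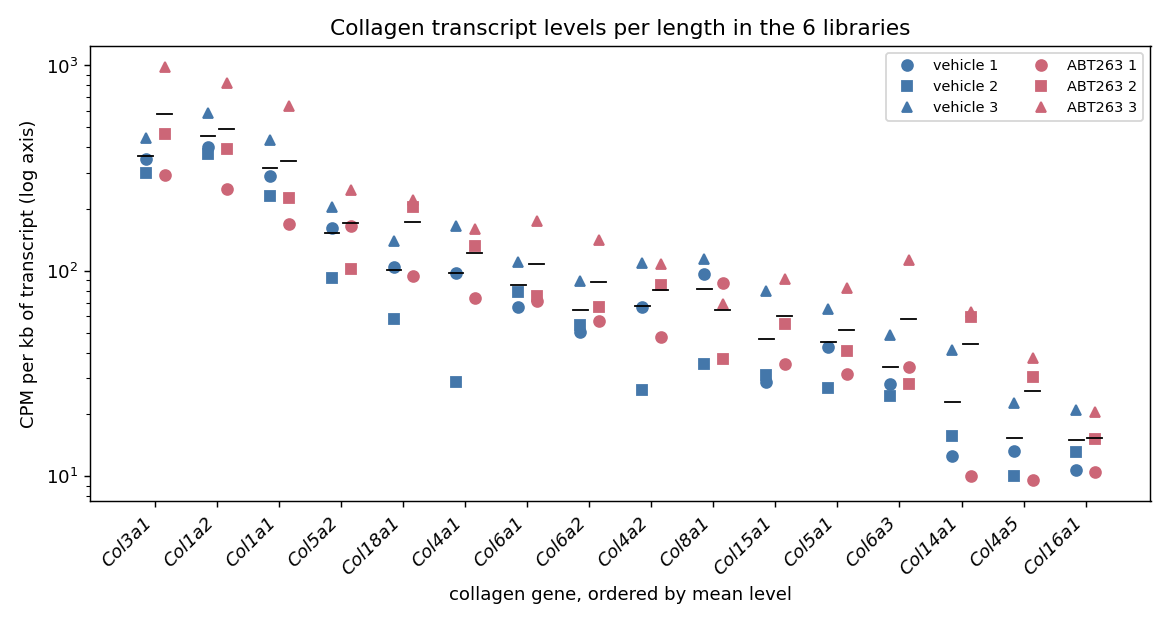
Level of the 16 most abundant members in each library, as CPM per kilobase of transcript on a log axis; blue marks are vehicle and red marks ABT263, circles, squares and triangles are replicates 1, 2 and 3, and bars are group means. Triangles (replicate 3 of either group) lie at the top of most genes, and the groups overlap for every gene shown.

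By edgeR no member passed the threshold. The quasi-likelihood test with Benjamini-Hochberg adjustment called 0 of the 36 members that had enough counts to be tested, and 0 of all 15222 genes (0%). The smallest adjusted p was 0.592, for members as for all genes. At an unadjusted p under 0.05 it listed 6 members (16.7%, against 8.38% of all genes), of which 5 were lower with ABT263 (13.9%, against 3.68%) and 1 was higher. These were Col9a3, Col9a2, Col8a2, Col11a2 and Col6a4 as the lower genes and Col6a6 as the higher. DESeq2 called 1 member, Col9a3, as lower (0.582% of the genes it tested were called lower), and limma-voom called none, with 5 members at an unadjusted p under 0.05. Log2 fold changes (ABT263 over vehicle) were positive for 22 of 36 members (61.1%, against 50.1% of all genes), with a median of 0.14 beside 8e-04 over all genes. Without ABT263 replicate 3, 13 of 37 members were positive and the median was -0.20.

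By library, the members followed shared highs and lows more than the groups. ABT263 replicate 1 held the lowest value for 17 of the 36 members (47.2%, against 10% of all genes tested) and the highest for none. ABT263 replicate 3 held the highest value for 14 (38.9%, against 11.1%) and vehicle replicate 3 for 12 (33.3%, against 10.2%). The groups did not overlap for 5 members (13.9%, against 12.0% of all genes), and all 5 were lower with ABT263 (6.31% of all genes were lower without overlap, and 5.68% higher). They were the same 5 genes as those lower at an unadjusted p under 0.05. Col9a3, Col9a2 and Col11a2 among them are chains of the cartilage collagens IX and XI.

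**Figure D2:**
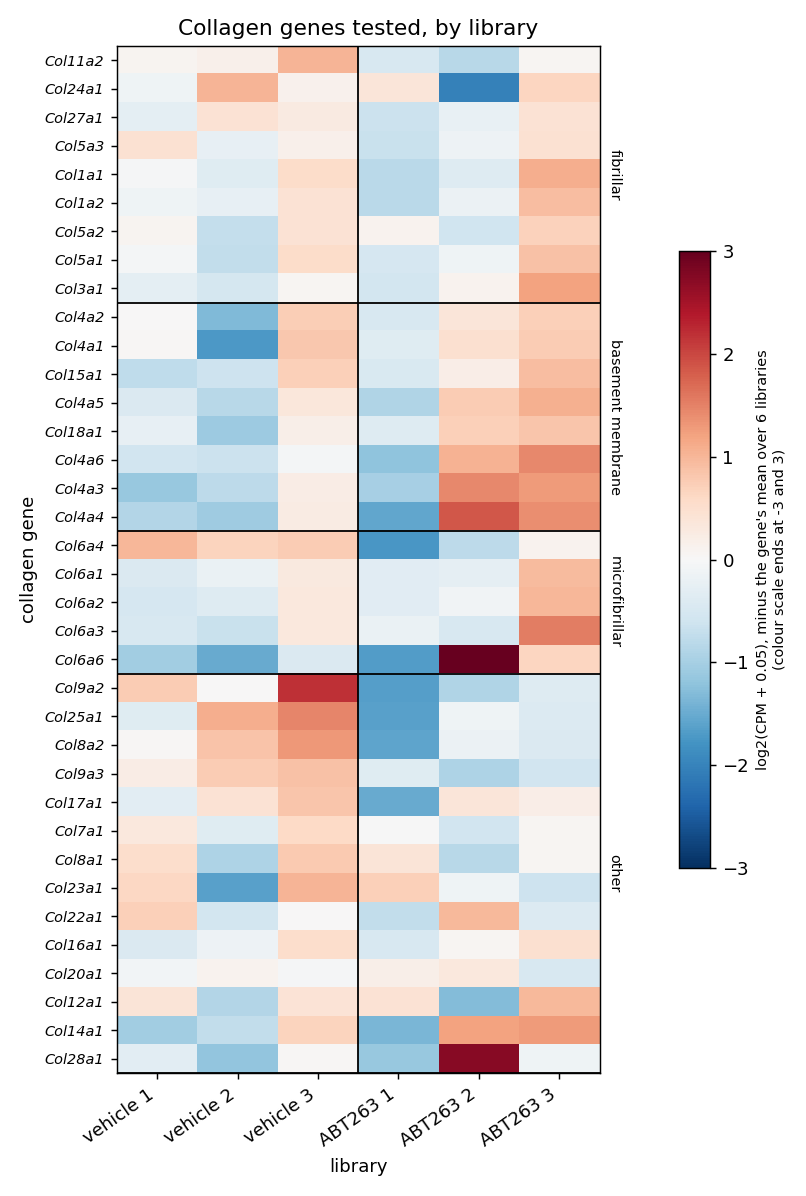
The 36 members tested (rows, by class and fold change) in the 6 libraries (columns), coloured by log2(CPM + 0.05) minus the gene's mean over the libraries, with the colour scale ending at -3 and 3. The column of ABT263 replicate 1 is mostly blue (lowest value for 17 members), the column of ABT263 replicate 3 mostly red, and Col6a6 and Col28a1 stand out in ABT263 replicate 2.

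Among the fibrillar genes, the chains of collagen I were at like mean levels in both groups, and their highest and lowest values were both ABT263 libraries. Col1a1 (chromosome 11, 94936224 to 94953042), the chain that makes up most of collagen I, stood at 1717, 1367 and 2582 CPM in the vehicle libraries and at 1008, 1346 and 3758 CPM with ABT263. The vehicle values thus lay inside the range of the ABT263 values. Its means were 1889 ± 625 and 2037 ± 1500 CPM (SD, n = 3), with a log2 fold change of 0.11 (SE 0.57). Without ABT263 replicate 3 the fold change of Col1a1 was -0.68. Col1a2 (chromosome 6, 4504814 to 4541544), its partner chain, stood at 2140, 1977 and 3142 CPM under vehicle and 1345, 2088 and 4415 CPM with ABT263 (log2 fold change 0.11, SE 0.51, and -0.50 without ABT263 replicate 3).

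Col3a1 (chromosome 1, 45311538 to 45349706), which encodes the collagen of pliable fibrils in vessel walls, had the most positive fold change of the fibrillar class. It stood at 1940, 1662 and 2472 CPM in the vehicle libraries and at 1638, 2571 and 5492 CPM with ABT263. ABT263 replicates 2 and 3 lay above all vehicle libraries and replicate 1 below them. The log2 fold change was 0.68 (SE 0.51, edgeR adjusted p = 0.769), and 0.05 without ABT263 replicate 3. Collagen V chains, which set the diameter of collagen I fibrils, had groups that overlapped widely. Col5a1 was at 378 ± 161 CPM under vehicle and 435 ± 228 CPM with ABT263 (log2 fold change 0.20, SE 0.47), and Col5a2, which follows Col3a1 on chromosome 1, at 1014 ± 376 and 1138 ± 487 CPM (0.17, SE 0.45).

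The less abundant fibrillar genes had negative fold changes. Col11a2 (chromosome 17, 34039437 to 34066685), the partner of the excluded Col11a1 in cartilage collagen XI, stood at 71.6, 75.7 and 137 CPM in the vehicle libraries and at 48.2, 38.0 and 69.9 CPM with ABT263. Every ABT263 value lay below every vehicle value, the closest being 69.9 and 71.6 CPM. The log2 fold change was -0.86 (SE 0.34, edgeR adjusted p = 0.592), and -0.50 without vehicle replicate 3. Col27a1, a fibrillar collagen of cartilage, had -0.25 (SE 0.32), Col24a1 -0.39 and Col5a3 -0.20, each with overlapping groups. Over the 9 fibrillar genes, 5 fold changes were positive and 4 negative, with a median of 0.11, and 1 of 9 had groups that did not overlap (12.0% of all genes). The median was -0.54 without ABT263 replicate 3.

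**Figure D3:**
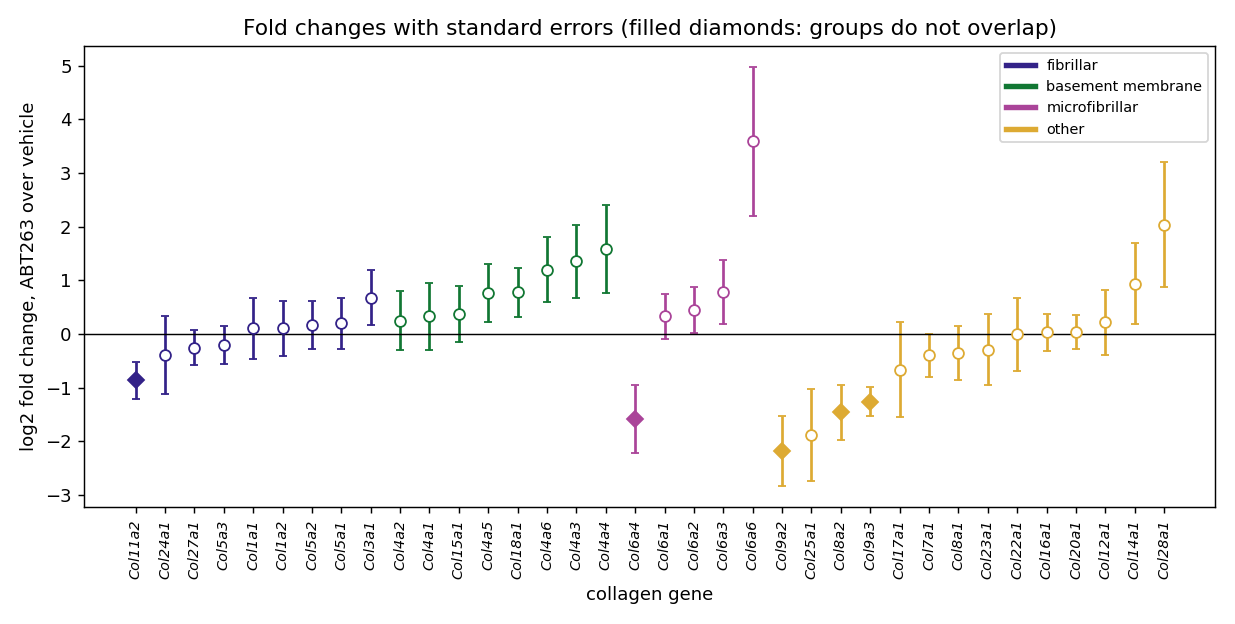
Log2 fold change (ABT263 over vehicle) with its standard error for the 36 members tested, coloured by class; filled diamonds mark genes whose groups did not overlap and open circles all others. All 8 basement membrane genes lie above 0, and the 5 diamonds lie below it.

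Ratios between chains within a library do not depend on the scaling of libraries. The number of Col3a1 reads per Col1a1 read was 1.13, 1.22 and 0.957 with vehicle and 1.63, 1.91 and 1.46 with ABT263. All ABT263 values lay above all vehicle values. The mean log2 ratio was 0.13 ± 0.18 with vehicle and 0.73 ± 0.19 with ABT263 (SD, n = 3; difference 0.60, exact two-sided permutation p = 0.10, the smallest that 3 against 3 allows). Adjusted over the 8 ratios compared, the exact p was 0.533, so no call was possible. Leaving out any 1 library gave differences of 0.49 to 0.69.

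Ratios between chains of the same type ranged less than the levels of those chains, and so did Col3a1 per Col1a1 across types. Col1a2 reads per Col1a1 read ran from 1.17 to 1.55, a 1.32-fold range, while Col1a1 itself ranged 3.73-fold. Col6a2 per Col6a1 spanned a 1.27-fold range, against 2.63-fold for Col6a1. Col4a2 per Col4a1 spanned 1.43-fold, against 5.75-fold for Col4a1, and stood at 0.629 to 0.664 in all libraries but vehicle replicate 2 (0.898). Col5a2 per Col5a1 spanned 2.09-fold, from 1.96 in ABT263 replicate 2 to 4.11 in ABT263 replicate 1, against 2.68-fold for Col5a2 and 3.07-fold for Col5a1. Col6a3 per Col6a1 also spanned 2.09-fold, against 4.61-fold for Col6a3. The chains of a ratio share library and depth. Across types, Col3a1 per Col1a1 spanned 1.99-fold, against 3.35-fold for Col3a1. Col4a1 per Col1a1 spanned 4.66-fold and Col8a1 per Col1a1 4.70-fold, against 3.22-fold for Col8a1. For the 7 ratios other than Col3a1 per Col1a1 the groups overlapped, with exact permutation p-values of 0.200 to 0.900.

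**Figure D4:**
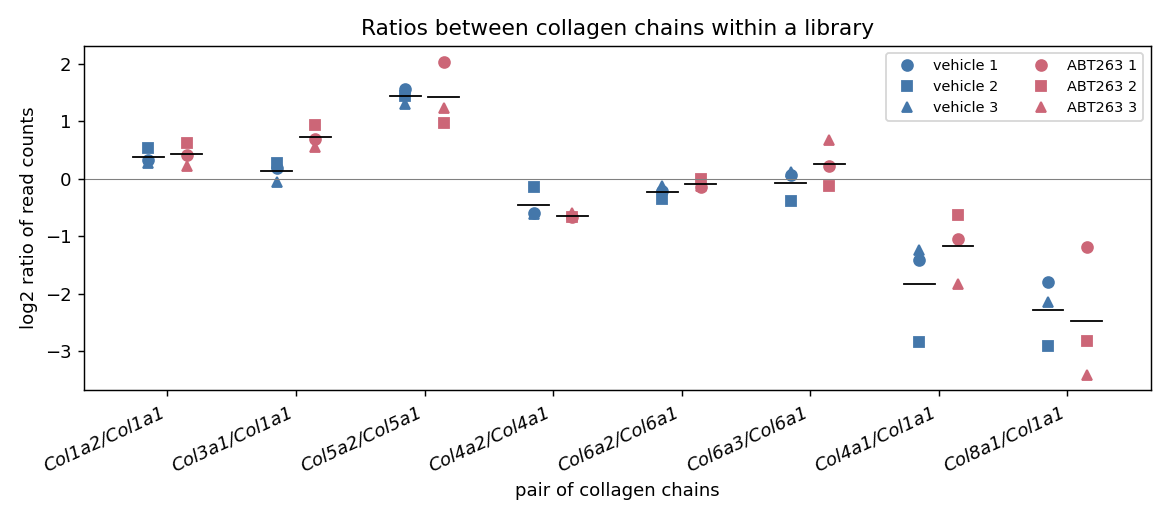
Log2 ratio of read counts between pairs of collagen chains in each library, with blue marks for vehicle, red for ABT263, shapes for replicates 1 (circle), 2 (square) and 3 (triangle), and bars for group means. Col3a1/Col1a1 is the pair whose groups do not overlap (0.13 and 0.73 on average).

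The basement membrane genes all had positive fold changes (8 of 8, against 50.1% of all genes, median 0.77), and none passed singly (smallest edgeR adjusted p 0.632). In 0 of 8 were the groups apart (12.0% of all genes). The median was 0.51 without vehicle replicate 2, 0.47 without ABT263 replicate 3, and 0.38 when replicate 2 of both groups was left out. For all 8, ABT263 replicates 2 and 3 stood above the vehicle mean and ABT263 replicate 1 below it. Col4a3 and Col4a4 encode chains of a type IV network best known from kidney glomeruli. Col4a3 (chromosome 1, 82586921 to 82722059) stood at 2.54, 3.22 and 6.58 CPM in the vehicle libraries and at 2.78, 15.3 and 13.7 CPM with ABT263 (log2 fold change 1.36, SE 0.68). Col4a4 (chromosome 1, 82448423 to 82586849) stood at 4.40, 3.83 and 9.52 CPM in the vehicle libraries and at 2.69, 29.5 and 21.4 CPM with ABT263 (1.59, SE 0.82). Against the vehicle mean, Col4a4 was 4.98-fold and 3.62-fold in ABT263 replicates 2 and 3 and 0.454-fold in replicate 1.

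Col4a5 and Col4a6 encode the chains of the network that surrounds smooth muscle. Col4a6 (chromosome X, 141165403 to 141474076) stood at 54.1, 52.2 and 77.7 CPM in the vehicle libraries and at 35.2, 167 and 220 CPM with ABT263 (log2 fold change 1.20, SE 0.61). Both of the latter ABT263 values were above every vehicle value, and the first was below. Col4a5 (chromosome X, 141475385 to 141689234) stood at 86.6, 65.9 and 149 CPM under vehicle and 62.5, 199 and 247 CPM with ABT263 (0.76, SE 0.54). The contractile smooth muscle markers were highest in the same pair of libraries. Myh11, smooth muscle myosin heavy chain, stood at 330, 185 and 451 CPM in the vehicle libraries and at 250, 3052 and 1848 CPM with ABT263. All 8 contractile markers had positive fold changes (median 1.85), and their part in the values of these chains was not tested. With ABT263 replicate 2 left out, Col4a3, Col4a4, Col4a5 and Col4a6 had fold changes of 1.00, 1.03, 0.63 and 1.06. Col4a5 and Col4a6 depended more on ABT263 replicate 3, with 0.38 and 0.72 when it was left out.

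The common type IV chains, Col4a1 and Col4a2, showed less difference. Col4a1 (chromosome 8, 11198423 to 11312826) stood at 646, 190 and 1091 CPM in the vehicle libraries and at 487, 872 and 1059 CPM with ABT263 (log2 fold change 0.33, SE 0.63). Vehicle replicate 2 was the lowest library and vehicle replicate 3 the highest. Col4a2 (chromosome 8, 11312805 to 11449287) stood at 429, 170 and 708 CPM under vehicle and 306, 550 and 697 CPM with ABT263 (0.25, SE 0.55). Without vehicle replicate 2 the fold changes turned to -0.11 for Col4a1 and -0.14 for Col4a2, and without vehicle replicate 3 they were 0.95 and 0.79. Vehicle replicate 2 was also low in the endothelial gene Vwf, von Willebrand factor, at 100 CPM against 830 to 2160 CPM in the others. Of the 8 endothelial markers, only Egfl7 was lowest elsewhere, in ABT263 replicate 3 (59.2 CPM). The other libraries did not keep the same order. The marker sum was highest in ABT263 replicate 1 (5198 CPM), where Col4a1 stood at 487 CPM. It was 1775 CPM in ABT263 replicate 3, where Col4a1 stood at 1059 CPM. The part of endothelial RNA in the type IV values was not tested.

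The 3 type IV pairs start back to back on opposite strands. In the annotation Col4a1 and Col4a2 overlap by 22 bases at their starts, Col4a3 and Col4a4 lie 71 bases apart and Col4a5 and Col4a6 1308 bases apart. Within a pair, the ratio of the first gene to the second ranged 1.43-fold, 2.0-fold and 1.70-fold over the libraries. The single genes ranged 5.75-fold and 4.15-fold, 6.01-fold and 11-fold, and 3.96-fold and 6.25-fold. The 2 genes of a pair share libraries and their depth, so this is a description.

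**Figure D5:**
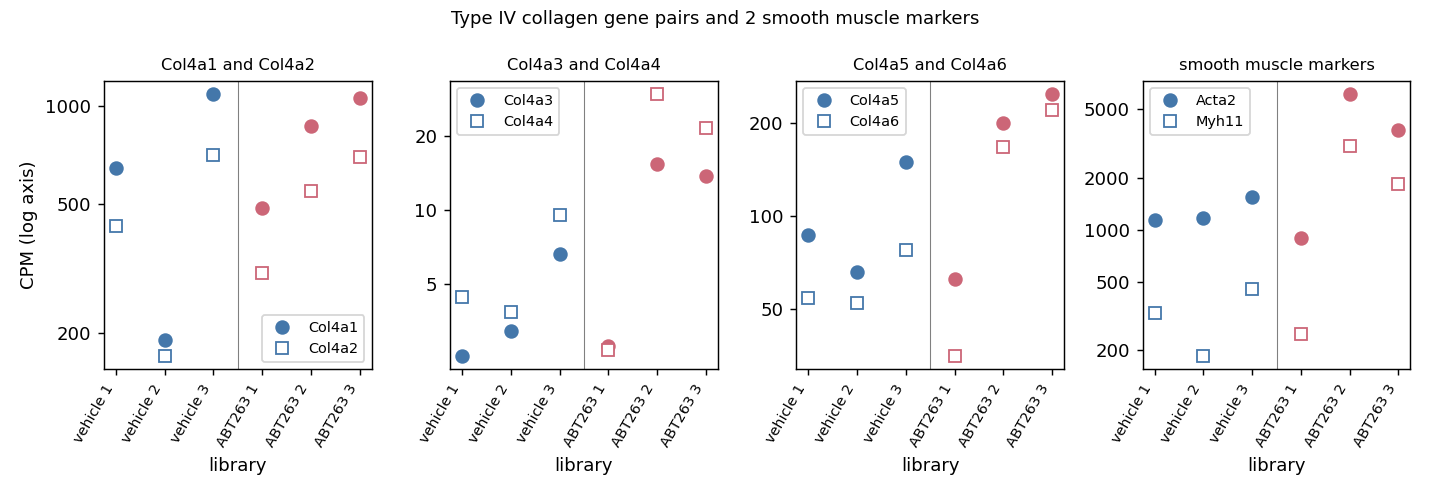
CPM on log axes in each library for the 3 type IV gene pairs and for the smooth muscle markers Acta2 and Myh11; blue is vehicle, red is ABT263, filled circles are the first gene of a panel and open squares the second. Col4a3 to Col4a6 and both markers are highest in ABT263 replicates 2 and 3, and Col4a1 and Col4a2 are lowest in vehicle replicate 2.

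The multiplexins, collagens of the basement membrane zone whose cleavage releases anti-angiogenic fragments, had positive fold changes as well. Col18a1 (chromosome 10, 77052178 to 77166548), the precursor of endostatin, stood at 581, 325 and 786 CPM in the vehicle libraries and at 529, 1140 and 1236 CPM with ABT263 (log2 fold change 0.78, SE 0.46). Again ABT263 replicates 2 and 3 exceeded all vehicle values. Over the fits without 1 library, Col18a1 ranged from 0.50 to 1.09. Col15a1 averaged 240 CPM under vehicle and 313 CPM with ABT263 (0.38, SE 0.52), and its highest values were 411 CPM in vehicle replicate 3 and 470 CPM in ABT263 replicate 3. The fold change of Col15a1 turned to -0.037 without ABT263 replicate 3, was 0.13 and 0.16 without vehicle replicates 1 and 2, and was 1.01 without vehicle replicate 3.

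The abundant microfibrillar chains were highest in ABT263 replicate 3 and overlapped otherwise. Col6a3 (chromosome 1, 90765923 to 90843971), the long chain of collagen VI, stood at 285, 248 and 494 CPM in the vehicle libraries and at 344, 283 and 1143 CPM with ABT263 (log2 fold change 0.78, SE 0.60). It was -0.13 without ABT263 replicate 3. Col6a1 and Col6a2, neighbours on chromosome 10, had fold changes of 0.33 (SE 0.42) and 0.45 (SE 0.43), which were -0.22 and -0.073 without that library. The sum of the 10 adventitial fibroblast markers was highest in the same library. It was 2438, 3689 and 2731 CPM under vehicle and 3890, 4291 and 6204 CPM with ABT263. Of the single markers, Lum and Dcn were highest in ABT263 replicate 3, at 2756 and 2887 CPM. Cd34 was highest in ABT263 replicate 1 and the rest in ABT263 replicate 2. All 10 fibroblast markers had positive fold changes (median 0.94). Skeletal muscle markers were highest in ABT263 replicate 3, as given above. The part of fibroblast and skeletal muscle RNA in the collagen VI values was not tested.

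The rarer collagen VI chains, encoded side by side on chromosome 9, had fold changes of opposite sign. Col6a4 (105989454 to 106096783) stood at 1.04, 0.816 and 0.878 CPM in the vehicle libraries and at 0.114, 0.267 and 0.533 CPM with ABT263, from 60 to 88 counts and 11 to 38 counts per library. The groups did not overlap (log2 fold change -1.58, SE 0.63, edgeR adjusted p = 0.592). Col6a6 stood at 0.672, 0.464 and 1.05 CPM in the vehicle libraries and at 0.413, 23.6 and 2.27 CPM with ABT263. Its fold change of 3.59 (SE 1.39, edgeR adjusted p = 0.592) was 0.88 without ABT263 replicate 2. Col6a5, left untested by the filter, had 0, 0 and 10 counts with vehicle and 0, 1244 and 8 with ABT263. ABT263 replicate 2, where both were high, was also the library of high adipocyte markers (Adipoq at 356 CPM against at most 0.510). The adventitial fibroblast markers summed to 4291 CPM there, below ABT263 replicate 3, where Lum and Dcn were highest. Pdgfra, Dpt, Pi16, Clec3b, Scara5, Serpinf1 and Pcolce2 were each highest in ABT263 replicate 2. Dpt, for example, stood at 537 CPM there against 18.7 to 96.4 CPM elsewhere. Cd34 was highest in ABT263 replicate 1, and Lum was lowest in ABT263 replicate 2, at 539 CPM. The part of fat and fibroblast RNA in these values was not tested.

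Among the other collagens, the lowest p belonged to chains of collagen IX. Collagen IX sits on the surface of cartilage fibrils, and Col9a2 and Col9a3 partner with the excluded Col9a1. Col9a3 (chromosome 2, 180597790 to 180622189) stood at 13.2, 19.1 and 20.7 CPM in the vehicle libraries and at 8.76, 5.93 and 7.50 CPM with ABT263. The highest ABT263 value was below the lowest vehicle value. The means were 17.7 ± 3.94 and 7.40 ± 1.42 CPM (SD, n = 3). The log2 fold change was -1.26 (SE 0.27, edgeR adjusted p = 0.592, DESeq2 adjusted p = 0.00949). Fold changes of Col9a3 without any 1 library were -1.43 to -1.12. Its exons overlap 234 bases of the antisense gene Tcfl5, which stood at no more than 0.0640 CPM in any library.

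Col9a2 (chromosome 4, 121039385 to 121055322) stood at 5.87, 3.49 and 15.9 CPM in the vehicle libraries and at 1.07, 1.82 and 2.66 CPM with ABT263. The log2 fold change was -2.18 (SE 0.65, edgeR adjusted p = 0.592, DESeq2 adjusted p = 0.0575), and -1.34 without vehicle replicate 3, the highest library. The cartilage collagens outside the set had negative fold changes too, Col2a1 with -1.22 (SE 0.35), Col9a1 with -0.87 (SE 0.61), Col11a1 with -1.45 (SE 0.53) and Col10a1 with -3.92 (SE 1.16). Of 10 chondrocyte markers, which include Col2a1, Col9a1 and Col11a1, 8 were tested and all 8 were negative, with a median of -0.75. The markers summed to 1456, 1532 and 2481 CPM under vehicle and to 874, 696 and 1234 CPM with ABT263, without overlap. Col2a1 was the largest part of this sum in every library. It stood at 935, 944 and 1776 CPM under vehicle and 483, 486 and 604 CPM with ABT263. Taken singly, only Col2a1 and Chad had groups that did not overlap, and the groups overlapped for every other chondrocyte marker. Matn1, a cartilage matrilin, was at 0 counts in vehicle replicate 2 and in ABT263 replicates 2 and 3, and Matn3 in ABT263 replicate 1. Sox9, the regulator of cartilage genes, stood at 12.2, 16.9 and 20.1 CPM under vehicle and 17.5, 9.61 and 17.3 CPM with ABT263. The part of cartilage-type cells in the collagen IX and XI values was not tested.

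Collagen VIII is a short-chain network collagen of the subendothelium and of migrating smooth muscle. Col8a1 (chromosome 16, 57624258 to 57754737), its abundant chain, stood at 492, 180 and 581 CPM in the vehicle libraries and at 444, 190 and 352 CPM with ABT263 (log2 fold change -0.35, SE 0.50). Without vehicle replicate 3 it was -0.03. Col8a2 (chromosome 4, 126286793 to 126314330) stood at 2.91, 5.18 and 7.01 CPM in the vehicle libraries and at 0.920, 2.51 and 2.08 CPM with ABT263, without overlap (-1.46, SE 0.51, edgeR adjusted p = 0.592, DESeq2 adjusted p = 0.141). In the fits without 1 library Col8a2 ranged from -1.75 to -1.14. Whether the 2 chains differed from each other was not tested.

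The other collagens that coat fibrils (the FACIT group, to which collagen IX belongs) had overlapping groups. Col14a1 (chromosome 15, 55307750 to 55520803), found where fibrils bear load, stood at 80.8, 101 and 266 CPM in the vehicle libraries and at 65.0, 386 and 406 CPM with ABT263 (log2 fold change 0.94, SE 0.75), with ABT263 replicates 2 and 3 highest, as for Col4a6. Col12a1, a relative of Col14a1, stood at 81.3, 33.9 and 83.1 CPM under vehicle and 84.2, 25.2 and 122 CPM with ABT263 (0.22, SE 0.60). Here ABT263 replicate 2 was the lowest library. Col16a1 stood at 78.2 ± 28.3 and 80.1 ± 26.0 CPM (0.035, SE 0.34). Col20a1 (0.041) and Col22a1 (-0.0041) were likewise near 0 on the log2 scale, at no more than 4.19 and 0.949 CPM. Col19a1, untested, had 2, 6 and 6 counts with vehicle and 0, 159 and 58 with ABT263.

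Of the transmembrane collagens, Col23a1 was the abundant one, at 60.5, 12.7 and 79.8 CPM under vehicle and 64.0, 36.0 and 25.3 CPM with ABT263 (log2 fold change -0.29, SE 0.66). Its lowest library was vehicle replicate 2, as for the sum of the endothelial markers. Col25a1 (log2 fold change -1.88, SE 0.85) did not exceed 0.644 CPM and Col17a1 0.307 CPM, and Col13a1, untested, had at most 13 counts. Col7a1, the anchoring fibril collagen of skin, stood at 2.48 ± 0.814 and 1.89 ± 0.433 CPM (-0.39, SE 0.40). Col28a1 stood at 2.37 CPM in ABT263 replicate 2 and at no more than 0.322 CPM elsewhere (2.04, SE 1.16, and -0.18 without that library). Col26a1, untested, had 2 counts in ABT263 replicate 2 and 0 in every other library. Over the 14 other collagens tested, 5 fold changes were positive and 9 negative (median -0.32, and -0.01 with no filter on low counts). Of the 14, 3 had groups apart, all lower (21.4%, against 6.31% of all genes). The median was -0.026 without vehicle replicate 3.

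Genes that make, bind and cut collagen were read out from the same fit. Of the 59 tested, 39 had positive and 20 negative fold changes (median 0.11), and 3 (Ddr2, Lair1 and Pepd) had an unadjusted edgeR p under 0.05 (5.08%, against 8.38% of all genes). The groups did not overlap for 3, P4ha2, Timp3 and Pepd (5.08%, a smaller share than the 12.0% of all genes). Of 21 genes of folding and modification in the endoplasmic reticulum, 16 had positive and 5 negative fold changes (median 0.17), and 0 passed by edgeR, by DESeq2 or at an unadjusted edgeR p under 0.05. P4ha2, a subunit of the prolyl hydroxylase that stabilises the helix, stood at 39.4, 21.9 and 42.3 CPM in the vehicle libraries and at 52.8, 42.6 and 54.8 CPM with ABT263 (log2 fold change 0.54, SE 0.28). Its groups did not overlap, by a margin of less than 1 CPM, and the fold change of P4ha2 was 0.29 without vehicle replicate 2. Serpinh1, the collagen chaperone HSP47, stood at 544, 356 and 770 CPM under vehicle and 683, 748 and 839 CPM with ABT263 (0.44, SE 0.33, and 0.20 without vehicle replicate 2). P4ha1 had 0.34 (SE 0.28), Plod2, a lysyl hydroxylase, 0.46 (SE 0.37, and -0.021 without ABT263 replicate 3), Creb3l1, a transcription factor of secretory cells, 0.45 (SE 0.29, and 0.11 without ABT263 replicate 3) and Colgalt2, a collagen galactosyltransferase, -0.81 (SE 0.46).

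Of 14 genes tested for propeptide cleavage and cross-linking, 10 were positive and 4 negative (median 0.20), and 0 passed by either tool or at an unadjusted edgeR p under 0.05. Adamts2, which removes the amino-terminal propeptide, stood at 111, 116 and 172 CPM in the vehicle libraries and at 114, 236 and 318 CPM with ABT263 (log2 fold change 0.74, SE 0.40, and 0.39 without ABT263 replicate 3). Pcolce, an enhancer of carboxyl-terminal cleavage, had 0.59 (SE 0.29) and the cross-linking enzyme Loxl1 0.56 (SE 0.43, and 0.26 without ABT263 replicate 2). Lox, the main lysyl oxidase, stood at 292 ± 134 and 302 ± 118 CPM (0.049, SE 0.44).

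Of 11 collagen receptors, 6 were positive and 5 negative (median 0.10), and 0 passed by edgeR or DESeq2. Ddr2, a receptor kinase for fibrillar collagen, stood at 60.3, 35.9 and 67.5 CPM in the vehicle libraries and at 64.1, 255 and 164 CPM with ABT263 (log2 fold change 1.56, SE 0.51, edgeR adjusted p = 0.592). ABT263 replicate 1 lay within the vehicle range and the other two above it. Ddr2 was 1.07 without ABT263 replicate 2. Lair1, an inhibitory collagen receptor of leukocytes, stood at 131, 251 and 85.6 CPM under vehicle and 86.3, 37.0 and 75.9 CPM with ABT263 (-1.23, SE 0.48, edgeR adjusted p = 0.592). Macrophage markers summed to 7216 to 14469 CPM under vehicle and 3424 to 7041 CPM with ABT263, and their part in Lair1 was not tested. Lair1 was -0.70 without vehicle replicate 2. Mrc2, which takes up cut collagen, had 0.82 (SE 0.38), and 0.32 without ABT263 replicate 3.

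Of 13 turnover genes tested, 7 were positive and 6 negative (median 0.01), and 0 passed by edgeR or DESeq2. Pepd, the dipeptidase that recycles proline from collagen, stood at 110, 109 and 83.6 CPM in the vehicle libraries and at 78.2, 68.9 and 68.9 CPM with ABT263, without overlap (log2 fold change -0.48, SE 0.18, edgeR adjusted p = 0.592). Timp3, a matrix-bound inhibitor of metalloproteinases named here after its values were seen, stood at 1190, 1134 and 1061 CPM under vehicle and 1344, 1388 and 1940 CPM with ABT263, also without overlap (0.46, SE 0.28). The membrane metalloproteinases Mmp15 and Mmp16 had 1.37 (SE 0.76) and 0.79 (SE 0.37), at mean levels of at most 5.56 CPM in either group. Mmp15 was 0.56 without ABT263 replicate 2.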

How the data were processed

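Per the labels' protocols, 100 to 200 ng of RNA from RNeasy Micro columns went into libraries of the TruSeq RNA v2 kit, which selects polyadenylated RNA and leaves strand unmarked. The authors deposited 1 table of raw counts per gene symbol. Per the submitters' processing notes, featureCounts 1.4.6 (Subread), TopHat2 2.0.14 and Bowtie2 2.2.6 were used with mm10, and no role or order is stated. Not given in the sources used here are the annotation, the strand setting and the handling of reads shared between genes. Of the 40 members, 12 have exons overlapping another gene, and their counts are uncertain to that extent.

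Counts were analysed in R 4.3.3 with edgeR 4.0.16: filterByExpr (minimum count 10, minimum total 15) kept 15222 genes, 36 members among them, libraries were scaled by TMM, and the quasi-likelihood F-test compared the groups with no covariate and 4 residual degrees of freedom. Adjustment (Benjamini-Hochberg, threshold 0.05) ran over all genes tested. SE was obtained from the fold change and F (absolute log2 value over the root of F). The alternatives limma-voom (limma 3.58.1) and DESeq2 1.42.0 were run, and the fit was tested on simulated data. Ratios used counts with 0.5 added and exact two-sided permutation tests. Positions and lengths are from GENCODE M21 (GRCm38, the assembly of mm10). Groups follow the sample titles. The genotype that all groups share is not reported here. Replicate numbers are in accession order.

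The members and lists were chosen with earlier results of these data known. Full statistics were given for 15 members listed outright, for the 3 of smallest p in each class, and in the lists for the 3 of smallest p and 5 genes listed outright. Other members have levels, counts or a fold change, and not all of these for each.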

Additional observations from a re-analysis of the deposited data

How the results depend on the processing

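No paired analysis was possible because replicate numbers were given in accession order and pair no samples. In all, 11 other fits were run. RLE size factors, no filter on low counts, limma-voom and the fits without 1 library or without vehicle replicate 2 and ABT263 replicate 2 together called 0 genes, members included. DESeq2 called 153 genes, 1 of them a member, Col9a3. Without 1 library, 13 to 25 members were positive and the median ran from -0.20 to 0.43, below 0 without ABT263 replicate 3 or vehicle replicate 2 (-0.058). The fibrillar median ran from -0.54 to 0.34 (-0.079 by limma-voom), the microfibrillar from -0.10 to 0.87, the basement membrane from 0.47 to 1.12 and the other from -0.63 to -0.026.

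Of 25 named members, 14 kept their sign in every fit and 11 did not, 10 of these without ABT263 replicate 3 and 7 without vehicle replicate 2. Without 1 library Col1a1 ran from -0.68 to 0.43, Col1a2 from -0.50 to 0.42, Col5a1 from -0.31 to 0.57, Col5a2 from -0.20 to 0.44, Col4a1 from -0.11 to 0.95, Col4a2 from -0.14 to 0.79, Col15a1 from -0.037 to 1.01, Col6a1 from -0.22 to 0.55, Col6a2 from -0.073 to 0.74, Col6a3 from -0.13 to 1.15 and Col12a1 from -0.27 to 0.65. Lox ran from -0.32 to 0.40 and Plod2 from -0.021 to 0.73. By limma-voom Col1a1 was -0.079 and Col1a2 -0.021. Without vehicle replicate 2 and ABT263 replicate 2 together Col4a1 was -0.17, Col4a2 -0.18 and Lox -0.13. The cause was not tested.

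Group differences in log2 ratio without 1 library ran from -0.053 to 0.15 for Col1a2/Col1a1, -0.33 to 0.20 for Col5a2/Col5a1 and -0.83 to 0.29 for Col8a1/Col1a1. The other 5 ratios kept their sign. With 3 libraries a group, differences smaller than the spread between replicates were not detectable. Larger differences could go uncalled too, as for Col9a3 (17.7 ± 3.94 and 7.40 ± 1.42 CPM, edgeR adjusted p = 0.592). Members under about 1 CPM rest on few counts.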
